A study of Homo sapiens with 8 samples.

Results

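The genes of the proteasome were followed through 8 RNA-seq libraries of HCT-8 colon cancer cells. Members were the protein-coding genes named PSMA, PSMB, PSMC or PSMD with a number, without the immunoproteasome subunits PSMB8, PSMB9 and PSMB10, plus ADRM1, PSME1 to PSME4 and PSMF1. This gave 42 genes of the 64253 gene identifiers in the count tables. A filter on low counts, filterByExpr, left 40 of the 42 among 20305 tested genes. Gene coordinates are those of GENCODE 44 on GRCh38. The alpha subunit PSMA8, which belongs to the testis, had no count in any library, and the thymus subunit PSMB11 had at most 1 count in a library.

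The proteasome degrades proteins that carry ubiquitin chains. Its 20S core is a barrel of alpha and beta rings, and the beta subunits PSMB5, PSMB6 and PSMB7 carry the proteolytic sites. The 19S particle caps the core: its base unfolds the substrate with the ATPases PSMC1 to PSMC6, its receptors bind ubiquitin and its lid removes it. Other caps are PA28, made of PSME1 and PSME2 or of PSME3, and PA200, the product of PSME4, whereas PSMF1 encodes PI31, a regulator first described as an inhibitor. When proteasome activity falls short, the transcription factor NFE2L1 raises the subunit genes together through antioxidant response elements in their promoters.

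The groups were HCT-8, a 5-FU-sensitive human colon cancer cell line, and HCT-8/FU, its 5-FU-resistant counterpart, both in unconditioned medium. The other groups were HCT-8 cells kept in conditioned medium (CM), taken from HCT-8 or HCT-8/FU after 48 h of culture. Each group had 2 libraries, and no 5-FU was named in the sample labels. Nothing states that the replicates came from separate cultures, so the p-values measure the spread between these libraries only. The resistant line is a single line, so resistance and other differences between the lines cannot be told apart.

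Counts on genes lay between 5804124 and 34881349 per library. HCT-8 replicate 1, HCT-8/FU replicate 2 and CM of HCT-8 replicate 1 had 20% to 29.6% of records not aligned and at most 9350753 counts, whereas the other libraries had 3.58% to 4.43% not aligned and at least 26709802 counts. All 10 markers of colon epithelial cells were detected, at a summed level of 9630 to 11900 CPM (counts scaled to a common effective library size). The 5 leukocyte markers summed to 0.739 to 1.96 CPM, with 3 of them at 0, the 3 endothelial markers to 1.27 to 2.45 CPM, and the 6 fibroblast markers, 1 of them at 0, to 12.5 to 22.3 CPM. In bulk RNA, fewer cells and less RNA per cell cannot be told apart.

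Promoters are printed for 6 genes that the results turn on: PSMC4 and PSMF1 fell most in HCT-8/FU, PSMD1 and PSMD12 rose there, and PSME2 and PSME4 moved differently between the lines and the CM. Each line gives the 250 bases before the RefSeq start in GRCh38.p14, 5′ to 3′ on the gene's strand. Capitals mark matches on either strand to TGACNNNGC, the core of the antioxidant response element, or to CGGAAG, the core bound by ETS factors, so that CTTCCG is CGGAAG on the opposite strand.
PSMC4, chr19:39970915-39971164, plus strand: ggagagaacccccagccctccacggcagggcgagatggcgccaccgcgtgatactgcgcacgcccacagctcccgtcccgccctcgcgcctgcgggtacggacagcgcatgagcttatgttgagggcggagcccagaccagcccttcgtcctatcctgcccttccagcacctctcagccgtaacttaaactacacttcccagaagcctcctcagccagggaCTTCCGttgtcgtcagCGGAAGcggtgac
PSMF1, chr20:1118352-1118601, plus strand: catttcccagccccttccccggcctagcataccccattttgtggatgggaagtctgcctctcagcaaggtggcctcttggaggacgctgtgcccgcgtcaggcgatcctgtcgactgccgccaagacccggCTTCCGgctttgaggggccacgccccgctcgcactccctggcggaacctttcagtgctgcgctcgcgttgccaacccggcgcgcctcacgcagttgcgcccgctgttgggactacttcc
PSMD1, chr2:231056617-231056866, plus strand: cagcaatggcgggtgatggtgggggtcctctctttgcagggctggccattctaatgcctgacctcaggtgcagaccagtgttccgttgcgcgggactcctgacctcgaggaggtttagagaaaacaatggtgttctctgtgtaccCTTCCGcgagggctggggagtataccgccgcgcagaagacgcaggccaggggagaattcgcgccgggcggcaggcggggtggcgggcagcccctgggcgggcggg
PSMD12, chr17:67366578-67366827, minus strand: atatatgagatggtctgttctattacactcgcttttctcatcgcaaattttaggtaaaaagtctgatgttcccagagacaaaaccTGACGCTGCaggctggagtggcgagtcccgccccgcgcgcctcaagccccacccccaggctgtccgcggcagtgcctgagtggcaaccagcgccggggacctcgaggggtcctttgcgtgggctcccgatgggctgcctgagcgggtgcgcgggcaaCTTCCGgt
PSME2, chr14:24146611-24146860, minus strand: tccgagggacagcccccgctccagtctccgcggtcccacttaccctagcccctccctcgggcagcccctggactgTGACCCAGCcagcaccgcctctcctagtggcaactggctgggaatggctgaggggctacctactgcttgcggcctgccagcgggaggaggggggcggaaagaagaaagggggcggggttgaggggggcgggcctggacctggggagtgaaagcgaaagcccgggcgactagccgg
PSME4, chr2:53970994-53971243, minus strand: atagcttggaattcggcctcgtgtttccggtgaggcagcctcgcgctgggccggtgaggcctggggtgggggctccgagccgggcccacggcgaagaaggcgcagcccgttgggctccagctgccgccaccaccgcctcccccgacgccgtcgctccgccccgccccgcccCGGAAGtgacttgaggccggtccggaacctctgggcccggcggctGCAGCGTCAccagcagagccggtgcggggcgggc
The core TGACNNNGC lay 34 bases before the start of PSME4, 165 before that of PSMD12 and 175 before that of PSME2. In PSMC4 and PSMD1 it lay 27 and 39 bases after the start, outside the printed stretch. The CGGAAG core lay 13 and 29 bases before the start of PSMC4, and the matches of different motifs did not overlap in these stretches. PSMF1 has more than 1 window in RefSeq, and the one printed is that with the most matches.

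RefSeq windows of 300 bases, 250 before and 50 after a start, were found for 37 of the 42 members. PSMA7, PSMB1, PSMB6, PSMB7 and PSMD4 had no entry. TGACNNNGC was in a window of 13 members, or 35.1%, and in that of 16.1% of all 27305 genes in the table. CGGAAG was in 23 members, or 62.2%, against 22.6% of all genes. The CCAAT box, bound by NF-Y, was in 19 members, or 51.4%, against 39.7%. GAANNTTC, the core of the heat shock element, was in 0 members and in 8.21% of all genes. A match describes letters in a window and shows neither binding nor a cause.

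Levels between genes were compared as CPM per kilobase of exon, averaged over the 8 libraries. The alpha subunit PSMA7 was at 61.1 and the trypsin-like subunit PSMB7 at 61.0 CPM per kilobase, followed by PSMB4 at 57.6, PSME1 at 50.8 and PSMB1 at 49.9. The other catalytic genes were at 40 (PSMB5, chymotrypsin-like) and 22.9 (PSMB6, caspase-like) CPM per kilobase. With the length of the longest transcript in place of all exons, PSMB7 at 111 and PSMA7 at 105 CPM per kilobase changed places, so their order rests on the length used.

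PSMA1, PSMA2 and PSMA6 stood apart from the other alpha genes. PSMA1 had 2.03, PSMA6 0.392 and PSMA2 0.305 CPM per kilobase, although the alpha ring holds these subunits in equal numbers. Their CPM per library lay between 1.84 and 9.35, against 60.6 to 126 for PSMA3, PSMA4, PSMA5 and PSMA7. Of their exonic bases, 26.7% (PSMA1), 17.2% (PSMA2) and 14.1% (PSMA6) are shared with another protein-coding gene on the same strand in GENCODE 44, and by default HTSeq leaves out reads that overlap more than 1 gene. The study names a different gene annotation for its counting, and 56105 of the 64253 identifiers are in GENCODE 44. The bases that were shared in the counting can therefore differ. The part of these shared bases in the low counts was not tested. PSMC1 shares 76.1% of its exonic bases with NRDE2 on the opposite strand, and PSMC5 15.3% with FTSJ3. PSMD7 shares 31.2% and ADRM1 11.4% with a gene on the opposite strand, and PSMD9 14.9% with one on the same strand. Whether the counting used the strand was not stated, so the levels of these genes are uncertain. The 42 pseudogenes named after 16 members held 593 counts in all, against 495107 counts on the members. Of these, 139 lay on PSMA6P1, which is 29.5% of the 471 counts on PSMA6. A further pseudogene that overlaps 12.4% of the exonic bases of PSMA2 on the opposite strand had 137 counts, against 461 on PSMA2.

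**Figure D1:**
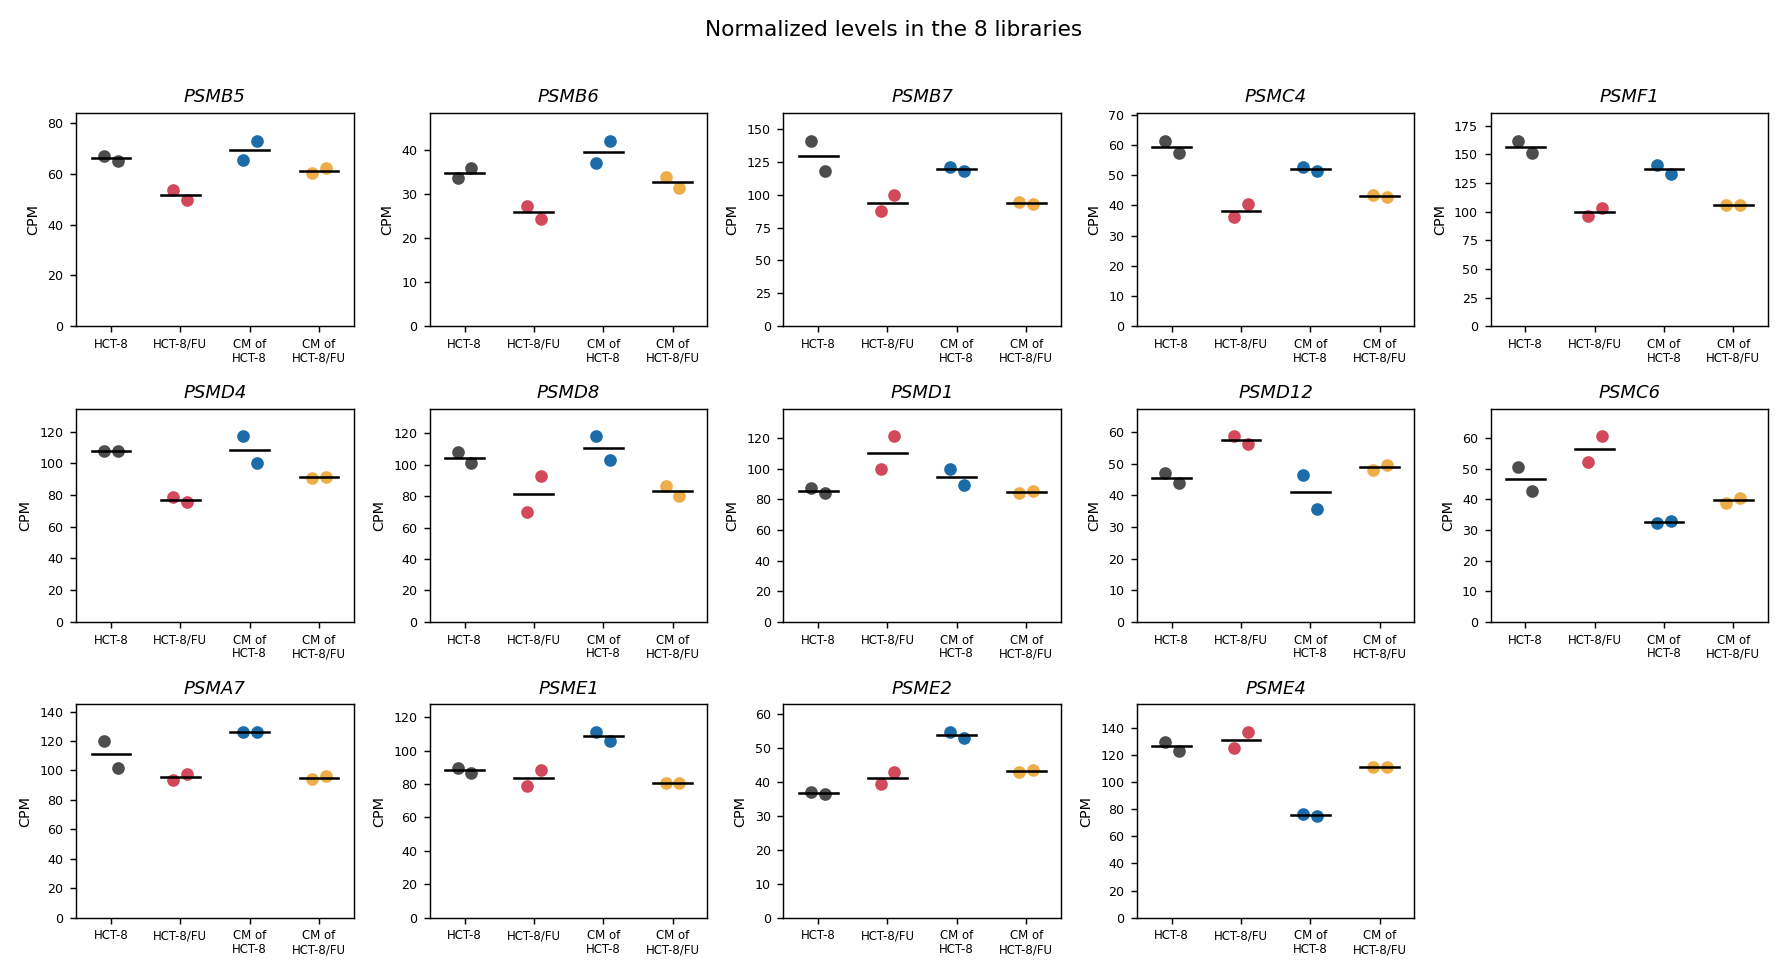
Normalized level (CPM, linear axis from 0) of 14 proteasome genes in the 8 libraries. Points are libraries and lines are the means of the 2 replicates in each group. PSMC4 and PSMF1 are lowest in HCT-8/FU, whereas PSME4 is lowest under CM of HCT-8 at 75.0 and 76.8 CPM.

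HCT-8/FU was compared with HCT-8 to describe what sets the resistant cells apart. In HCT-8/FU, 14 of the 40 tested members were lower and 2 were higher at a false discovery rate (FDR) of at most 0.05, by the quasi-likelihood test of edgeR, adjusted after Benjamini and Hochberg over all tested genes. Of all tested genes, 18.1% were lower and 18.6% were higher at this FDR, so the share of members that were lower lay above the background and that of members that were higher below it. The median log2 fold change was −0.20 over the members and 0.01 over all tested genes. Genes that also changed by 0.58 or more on the log2 scale, the study's fold threshold, were called DE. Of the members, PSMC4 and PSMF1 were DE, a smaller share than the 8.12% of all tested genes that were DE and lower.

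In the beta ring, all 7 tested beta genes had negative log2 fold changes, and PSMB4, PSMB5, PSMB6 and PSMB7 fell. PSMB7 measured 141 and 118 CPM in HCT-8 cells, 87.9 and 99.5 CPM in HCT-8/FU cells, 121 and 118 CPM under CM of HCT-8, and 94.2 and 93.2 CPM under CM of HCT-8/FU. Both HCT-8/FU libraries and both CM of HCT-8/FU libraries lay below all 4 others. Its log2 fold change in HCT-8/FU was −0.47 ± 0.09 (SE), with an FDR of 0.001 in edgeR.

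PSMB5 measured 67.1 and 64.9 CPM in HCT-8 cells, 53.5 and 49.8 CPM in HCT-8/FU cells, 65.4 and 73.0 CPM under CM of HCT-8, and 60.1 and 62.2 CPM under CM of HCT-8/FU. PSMB6 measured 33.6 and 35.8 CPM in HCT-8 cells, 27.3 and 24.4 CPM in HCT-8/FU cells, 37.1 and 42.1 CPM under CM of HCT-8, and 33.9 and 31.4 CPM under CM of HCT-8/FU. For both genes the HCT-8/FU libraries were the lowest of all 8. The log2 fold change in HCT-8/FU was −0.34 ± 0.09 for PSMB5 and −0.41 ± 0.11 for PSMB6, with edgeR FDRs of 0.0084 and 0.0093. The call of PSMB5 was lost with a correction for GC content and length, at −0.25, and that of PSMB6 without HCT-8 replicate 2, at −0.38.

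Added up, the transcripts of the 3 catalytic genes came to 230 ± 15.8 CPM in HCT-8 (SD, n = 2) and to 171 ± 3.54 in HCT-8/FU. They came to 229 ± 6.72 CPM in CM of HCT-8 and to 187 ± 0.974 in CM of HCT-8/FU. Both groups that involved the resistant line lay below both others. All 40 members together summed to 3220 and 3040 CPM in HCT-8 cells, to 2610 and 2950 CPM in HCT-8/FU cells, to 3090 and 3020 CPM under CM of HCT-8, and to 2660 and 2650 CPM under CM of HCT-8/FU. The libraries of HCT-8/FU thus differed by more than those of any other group.

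In the base of the 19S particle, the ATPase gene PSMC4 (chr19:39971165-39981764) fell most. It measured 61.4 and 57.2 CPM in HCT-8 cells, 36.1 and 40.3 CPM in HCT-8/FU cells, 52.8 and 51.5 CPM under CM of HCT-8, and 43.4 and 42.7 CPM under CM of HCT-8/FU. The groups did not overlap, and HCT-8/FU was at 0.639 times the level of HCT-8. This was a log2 fold change of −0.65 ± 0.10 with an edgeR FDR of 7.6e-05, and it ranged from −0.73 to −0.56 when each library was left out in turn. The other ATPase genes did not pass, and PSMC6 had a positive log2 fold change of 0.28 ± 0.11 with an edgeR FDR of 0.057.

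The ubiquitin receptor genes PSMD4 and ADRM1 fell in HCT-8/FU. PSMD4 measured 108 and 108 CPM in HCT-8 cells, 78.8 and 75.4 CPM in HCT-8/FU cells, 117 and 100 CPM under CM of HCT-8, and 91.0 and 91.5 CPM under CM of HCT-8/FU. The HCT-8/FU libraries were the lowest, with a log2 fold change of −0.48 ± 0.09 and an edgeR FDR of 4.7e-04. ADRM1 changed by −0.35 ± 0.09 with an edgeR FDR of 0.0046, and lost this call with the correction for GC content and length, at −0.15 with an FDR of 0.36.

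PSMD1, a large scaffold subunit of the same base, went the other way. It measured 87.2 and 83.9 CPM in HCT-8 cells, 100 and 121 CPM in HCT-8/FU cells, 100 and 89.0 CPM under CM of HCT-8, and 84.3 and 85.7 CPM under CM of HCT-8/FU. Both HCT-8/FU libraries lay above both of HCT-8. Its log2 fold change in HCT-8/FU was 0.36 ± 0.10 with an edgeR FDR of 0.0091. The call was lost without HCT-8 replicate 2, at 0.30, and without HCT-8/FU replicate 2, at 0.23. Its partner scaffold PSMD2 gave −0.09 ± 0.08, with an edgeR FDR of 0.45.

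In the lid, PSMD3, PSMD8 and PSMD13 fell and PSMD12 rose in HCT-8/FU. PSMD8 measured 108 and 101 CPM in HCT-8 cells, 69.9 and 92.8 CPM in HCT-8/FU cells, 118 and 103 CPM under CM of HCT-8, and 86.2 and 80.2 CPM under CM of HCT-8/FU. Its HCT-8/FU libraries differed by more than its HCT-8 libraries, and the log2 fold change of −0.39 ± 0.12 (edgeR FDR of 0.015) went to −0.18 and was no longer called without HCT-8/FU replicate 1. Its call was also lost without HCT-8 replicate 1, at −0.36, or replicate 2, at −0.46. PSMD12 measured 46.9 and 43.9 CPM in HCT-8 cells, 58.6 and 56.2 CPM in HCT-8/FU cells, 46.4 and 35.8 CPM under CM of HCT-8, and 48.0 and 49.6 CPM under CM of HCT-8/FU. Both HCT-8/FU libraries were above all others, with a log2 fold change of 0.35 ± 0.11 and an edgeR FDR of 0.024, and the call was lost when any 1 library of either line was left out (0.27 to 0.38). PSMD14, the lid's deubiquitinating enzyme, gave 0.15 ± 0.11 with an edgeR FDR of 0.30. With the correction for GC content and length PSMD14 was lower, at −0.56 with an edgeR FDR of 0.0029.

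PSMD5 and PSMD10, chaperones that help the base assemble, fell by 0.24 and 0.47 on the log2 scale, and the third chaperone, PSMD9, gave −0.38 ± 0.20 with an edgeR FDR of 0.16. With the correction for GC content and length PSMD5 was at −0.68 and PSMD10 at −1.01. Without HCT-8/FU replicate 1 both calls were lost, at −0.29 and −0.42, and of the 8 fits without 1 library 5 lost the call of PSMD5 and 2 that of PSMD10. Among the caps, PSMF1 (chr20:1113240-1189415) measured 162 and 151 CPM in HCT-8 cells, 95.8 and 103 CPM in HCT-8/FU cells, 141 and 133 CPM under CM of HCT-8, and 106 and 106 CPM under CM of HCT-8/FU. Its groups did not overlap, and HCT-8/FU was at 0.633 times HCT-8. The log2 fold change was −0.66 ± 0.08 with an edgeR FDR of 9.9e-06. PSME1, PSME2, PSME3 and PSME4 did not pass in HCT-8/FU, with log2 fold changes from −0.19 to 0.15.

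In the alpha ring only PSMA5 passed, at −0.33 ± 0.09 with an edgeR FDR of 0.0093. Of its 7 tested genes, 4 had positive log2 fold changes. PSMA6, the largest of these, changed by 0.40 ± 0.35 on 12 to 100 counts per library. It measured 1.84 and 2.37 CPM in HCT-8 cells, 3.32 and 2.01 CPM in HCT-8/FU cells, 2.53 and 3.35 CPM under CM of HCT-8, and 2.08 and 2.89 CPM under CM of HCT-8/FU, so that its groups overlapped and no difference was detectable at this depth.

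**Figure D2:**
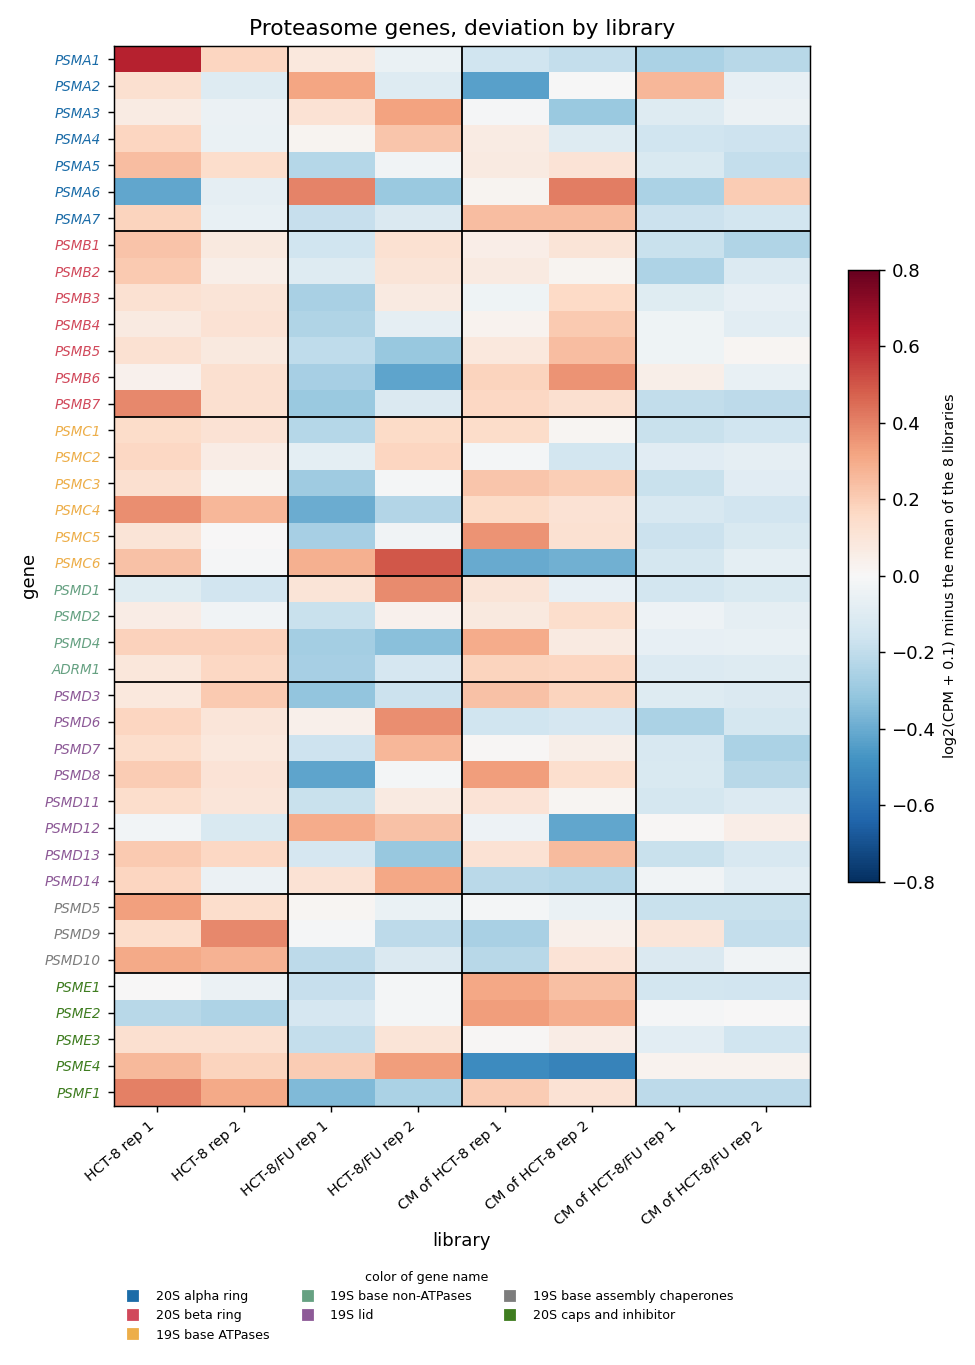
Deviation of each of the 40 tested proteasome genes from its mean over the 8 libraries, on the log2(CPM + 0.1) scale. Rows are genes grouped by their place in the complex (color of the name), columns are libraries, red is above and blue below the mean. All 7 beta ring genes are lower on average in HCT-8/FU than in HCT-8, and PSME4 is lowest in CM of HCT-8.

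Of the 16 calls in HCT-8/FU, 7 passed whichever library was left out: PSMB5, PSMB7, PSMC4, PSMD3, PSMD4, PSMD13 and PSMF1. Of these 7, PSMB5 and PSMD3 lost their calls with the correction for GC content and length, at −0.25 and −0.22. Leaving out single libraries gave 8 (without HCT-8/FU replicate 1) to 20 (without HCT-8/FU replicate 2) lower members, against 13.2% and 14.9% of all genes in these fits. A fit of the 5 libraries with few records not aligned was an alternative chosen after seeing the data. It left HCT-8 and HCT-8/FU with 1 library each, and the spread came from CM of HCT-8/FU alone. The median log2 fold change in that fit was −0.27 over the members and 0.005 over all genes. With CM of HCT-8 replicate 2 as the reference of the normalization, 12 were lower, 4 were higher and none was DE, against 14% and 21.7% of all genes that were lower and higher. The gap between the medians of the members and of all genes was −0.206, and −0.208 with the other reference. It shrank to −0.0415 when replicate 1 of HCT-8/FU was left out and widened to −0.31 when replicate 2 was, so it rests largely on replicate 1. Replicate 1 had 28444413 counts and 3.72% of records not aligned, whereas replicate 2 had 5804124 counts and 20% not aligned.

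Cells grown under medium of the resistant line were compared with those under CM of HCT-8, which asks whether medium of the resistant cells alters the recipients. Under CM of HCT-8/FU, 13 members were lower and 1 was higher at an edgeR FDR of at most 0.05, against 8.49% and 11.2% of all tested genes, so the share of lower members again lay above the background. None was DE, as no member that passed the FDR reached the fold threshold. The median log2 fold change was −0.20 over the members and −0.06 over all tested genes. The number of lower members depended on the scaling: it was 9 with the size factors of DESeq2 (4.76% of all genes) and 4 with the other reference library (3.61%), where 3 were higher. In a fit of these 2 groups alone, which changes the filter and the estimated spread as well, 5 were lower (2.6% of all genes) and 2 higher. The gap between the medians of the members and of all genes was −0.144 as first fitted, −0.143 with the other reference and −0.138 in the 2 groups alone.

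The largest changes in each direction among the members that passed were those of the cap genes PSME4 and PSME1. PSME1, the alpha subunit of PA28, measured 89.8 and 86.8 CPM in HCT-8 cells, 78.7 and 88.6 CPM in HCT-8/FU cells, 111 and 106 CPM under CM of HCT-8, and 80.8 and 80.5 CPM under CM of HCT-8/FU. Both libraries in CM of HCT-8 were above all others. The log2 fold change in CM of HCT-8/FU was −0.43 ± 0.08 with an edgeR FDR of 0.0016.

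PSME2, the beta subunit of PA28, measured 37.0 and 36.5 CPM in HCT-8 cells, 39.4 and 42.8 CPM in HCT-8/FU cells, 54.6 and 52.9 CPM under CM of HCT-8, and 42.9 and 43.4 CPM under CM of HCT-8/FU. The pattern was that of PSME1, with the libraries of CM of HCT-8 highest, at a log2 fold change of −0.31 ± 0.09 and an edgeR FDR of 0.021. Without HCT-8 replicate 2 the call was lost, at −0.25, as it was without either library of CM of HCT-8/FU, at −0.30 and −0.32.

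PSME4 (chr2:53864069-53970993), the gene of PA200, measured 130 and 123 CPM in HCT-8 cells, 125 and 137 CPM in HCT-8/FU cells, 76.8 and 75.0 CPM under CM of HCT-8, and 111 and 111 CPM under CM of HCT-8/FU. It was lowest in CM of HCT-8 and did not overlap with any other group. PSME4 was the only member that rose in CM of HCT-8/FU, by a log2 fold change of 0.55 ± 0.08 with an edgeR FDR of 1.3e-04. With the correction for GC content and length the value was 0.07 with an edgeR FDR of 0.73.

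In the core, PSMA7, PSMB1 and PSMB7 were lower in CM of HCT-8/FU. PSMA7 measured 120 and 102 CPM in HCT-8 cells, 93.4 and 97.9 CPM in HCT-8/FU cells, 126 and 126 CPM under CM of HCT-8, and 94.4 and 96.0 CPM under CM of HCT-8/FU. The CM groups lay apart, with a log2 fold change of −0.41 ± 0.08 and an edgeR FDR of 0.0027. In the 19S particle the ATPase genes PSMC3, PSMC4 and PSMC5, the receptor gene ADRM1 and the lid genes PSMD3, PSMD8 and PSMD13 fell, by 0.28 to 0.41 on the log2 scale. The call of PSMC4, at −0.28 ± 0.09 with an edgeR FDR of 0.045, was lost under most alternatives. PSMF1 fell by 0.37, with an edgeR FDR of 0.003, and lost its call only without CM of HCT-8/FU replicate 1, at −0.36.

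PSMC6 measured 50.4 and 42.6 CPM in HCT-8 cells, 52.2 and 60.5 CPM in HCT-8/FU cells, 32.3 and 32.8 CPM under CM of HCT-8, and 38.9 and 40.5 CPM under CM of HCT-8/FU. The libraries under CM of HCT-8 were the lowest. Its log2 fold change in CM of HCT-8/FU was 0.28 ± 0.11, unlike the sign of the other ATPase genes that passed, and the edgeR FDR was 0.077. PSMA1 measured 9.35 and 6.86 CPM in HCT-8 cells, 6.45 and 5.85 CPM in HCT-8/FU cells, 5.41 and 5.31 CPM under CM of HCT-8, and 5.07 and 5.19 CPM under CM of HCT-8/FU. It changed by −0.06 ± 0.22 between the CM groups, with an edgeR FDR of 0.89.

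Of the 14 calls, 3 passed whichever library was left out: PSMA7, PSME1 and PSME4. Without replicate 1 or 2 of CM of HCT-8/FU, 2 and 3 members were lower, against 1.71% and 1.83% of all genes, and without HCT-8 replicate 2, 4 were, against 2.74%. PSMA7, PSME1 and PSME4 all lost their calls with the correction for GC content and length. They were then at −0.30, −0.29 and 0.07, with edgeR FDRs of 0.11, 0.12 and 0.73. Among the 5 libraries with few records not aligned, CM of HCT-8 had 1 library, and the spread came from CM of HCT-8/FU alone. The median log2 fold change in that fit was −0.22 over the members and −0.08 over all genes. The list of lower members in the resistant line and that under its medium shared PSMB7, PSMC4, ADRM1, PSMD3, PSMD8, PSMD13 and PSMF1, which were 50.0% of the first list and 53.8% of the second. The overlap of such lists over all tested genes was not counted, so these shares cannot be read as particular to the members. Of the shared genes, only PSMF1 was lower in both comparisons with the correction for GC content and length. These comparisons use different libraries.

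**Figure D3:**
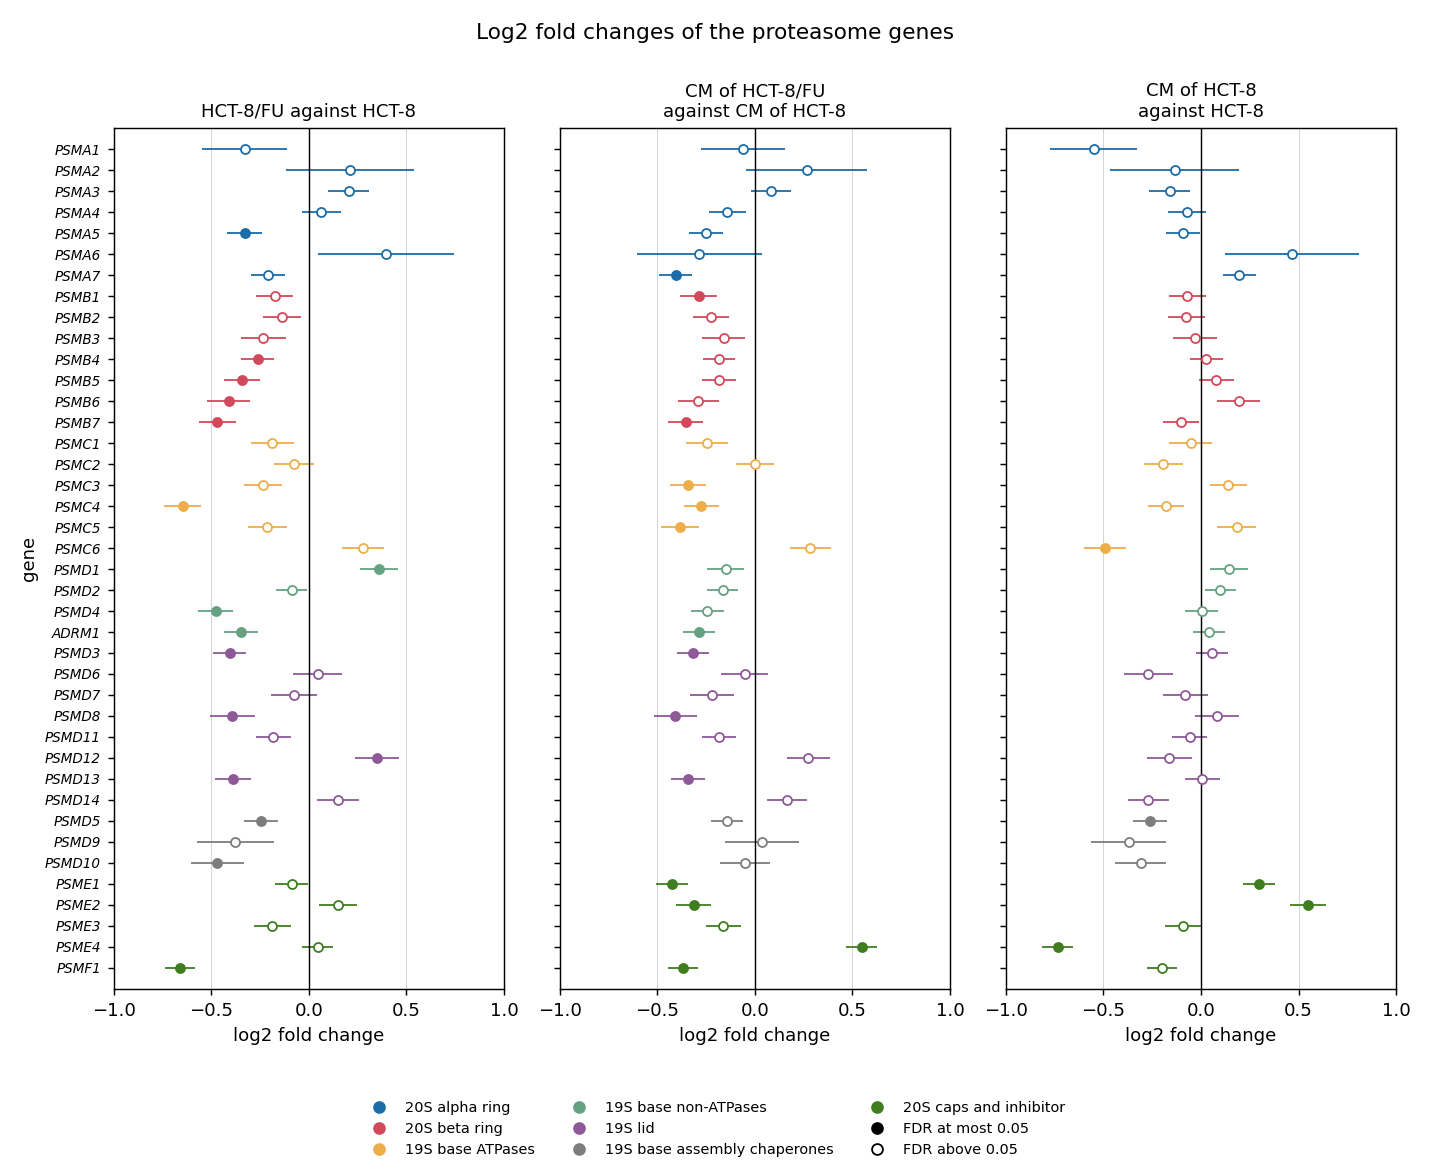
Log2 fold change of each of the 40 tested proteasome genes in 3 comparisons, with the standard error as the bar. Filled points have an edgeR FDR of at most 0.05. For HCT-8/FU, 14 filled points lie left of 0 and 2 right of it. For CM of HCT-8/FU these are 13 and 1, and for CM of HCT-8 they are 3 and 2.

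CM of HCT-8 was compared with unconditioned HCT-8 to see what conditioning by the same cells does. Here 2 members were higher and 3 lower at an edgeR FDR of at most 0.05, against 9.04% and 10.4% of all tested genes, so both shares of members lay below the background. The median log2 fold change was −0.07 over the members and 0.01 over all genes. PSME4 was the only DE member, against 4.29% of all tested genes that were DE and lower.

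Of the 5 calls, 3 were cap genes. PSME2 rose by 0.55 ± 0.09 on the log2 scale with an edgeR FDR of 7.6e-04, and PSME1 rose by 0.30 ± 0.08 with an edgeR FDR of 0.019. PSME4 fell by 0.73 ± 0.08 with an edgeR FDR of 2.4e-05, to 0.601 times its level in HCT-8. PSMC6 fell by 0.49 and PSMD5 by 0.26, with edgeR FDRs of 0.0056 and 0.045. The calls of PSME2 and PSME4 were kept whichever library was left out, whereas PSME1 lost its call without either library of HCT-8 or without CM of HCT-8/FU replicate 1 (0.20 to 0.32) and PSMC6 without HCT-8 replicate 1 (−0.39). PSMD5 lost its call in 5 of the 8 fits (−0.27 to −0.18). With the GC correction PSME1, PSMC6 and PSMD5 were no longer called, at 0.16, −0.24 and −0.12. This comparison shares its libraries with both others, so the values of PSME1, PSME2 and PSME4 in CM of HCT-8 enter more than 1 of them.

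The change in the resistant line and the change in its CM were compared directly, as the difference of their log2 fold changes. It was higher for 2 members and lower for 1 at an edgeR FDR of at most 0.05, against 5.15% and 6.42% of all tested genes, shares that the members did not exceed. PSMD1 differed by 0.51 ± 0.14 with an edgeR FDR of 0.025, PSME2 by 0.46 ± 0.13 with 0.031 and PSME4 by −0.50 ± 0.11 with 0.0078. With the GC correction PSME2 lost its call, at 0.45 with an edgeR FDR of 0.081. The call of PSME4 was kept whichever library was left out, while PSMD1 (0.37 to 0.52) and PSME2 (0.36 to 0.46) each lost theirs in 5 of these 8 fits. PSMF1, at −0.29 ± 0.11 with an edgeR FDR of 0.11, and PSMC4, at −0.37 ± 0.13 with 0.089, did not pass. Over the 40 members the highest mean was in HCT-8 for 17 genes, under CM of HCT-8 for 14 and in HCT-8/FU for 9. It was under CM of HCT-8/FU for 0 genes.

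The changes varied with the base composition of the genes. The exonic GC content of the members ran from 35.1% to 65.0%, with a median of 46.7% against 49.0% over all genes. Across the 40 members the Spearman correlation of GC content with the log2 fold change was −0.57 for HCT-8/FU, −0.70 for its medium and 0.59 for medium of HCT-8. Over 19857 tested genes it was −0.40, −0.40 and 0.30. Genes share their libraries and are not independent, so these are descriptions.

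At a split of 45% GC, chosen after the values were seen, 21 of the 22 members above it had negative log2 fold changes in HCT-8/FU, with a median of −0.30. Of the 18 members below it, 10 were positive, with a median of 0.05. PSMD12 at 37.2% and PSMD1 at 39.7% GC, the members that rose in HCT-8/FU, belong to the second set, and PSMC4 at 53.2% and PSMF1 at 49.5% to the first. In CM of HCT-8/FU the split gave 21 negative of 22 and 11 of 18.

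Each library was therefore also corrected for GC content and exonic length. In HCT-8/FU, 14 members were then lower and none higher, against 16.3% and 12% of all genes in this fit, with a median of −0.27 against −0.03 over all genes, and 9 of the 14 were also lower without the correction. PSMF1 stayed at −0.66 with an edgeR FDR of 1.8e-04. PSMC4 moved to −0.52 with an edgeR FDR of 0.0043, and was no longer DE. PSMA5, PSMC2, PSMD5 and PSMD10 became DE, at −0.85, −0.67, −0.68 and −1.01. The calls of PSMB4, PSMB5, ADRM1, PSMD3 and PSMD8 were lost, at −0.24, −0.25, −0.15, −0.22 and −0.20. PSMD1 and PSMD12 turned to −0.20 and −0.24, with edgeR FDRs of 0.20 and 0.12, so the rise of both depends on this setting. PSMC6 and PSMD14 turned from 0.28 and 0.15 to −0.30 and −0.56, with edgeR FDRs of 0.078 and 0.0029. Members with a positive log2 fold change went from 11 to 3. In CM of HCT-8/FU, 10 members were lower and none higher, against 5.9% and 4.05% of all genes, and PSMB1 and PSMF1 were lower with and without the correction, so that 11 of the 13 lower calls were lost. PSMA5 and PSMD1 became DE in this comparison, both at −0.73, with edgeR FDRs of 7.3e-04 and 0.0011. There PSMC6 and PSMD14 turned from 0.28 and 0.16 to −0.27 and −0.55, with edgeR FDRs of 0.18 and 0.0087. Members with a positive value went from 8 to 2. For CM of HCT-8, PSME2 and PSME4 kept their calls, at 0.45 and −0.51 (edgeR FDRs of 0.014 and 0.0027). PSMD1 became higher in that comparison, at 0.43 with an edgeR FDR of 0.02. PSME4 was then also lower in HCT-8/FU, at −0.45 with an edgeR FDR of 0.0019. After the correction the correlation across members was 0.54 and 0.63 in the first comparisons, so the members' trend with GC content turned over instead of going to 0.

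**Figure D4:**
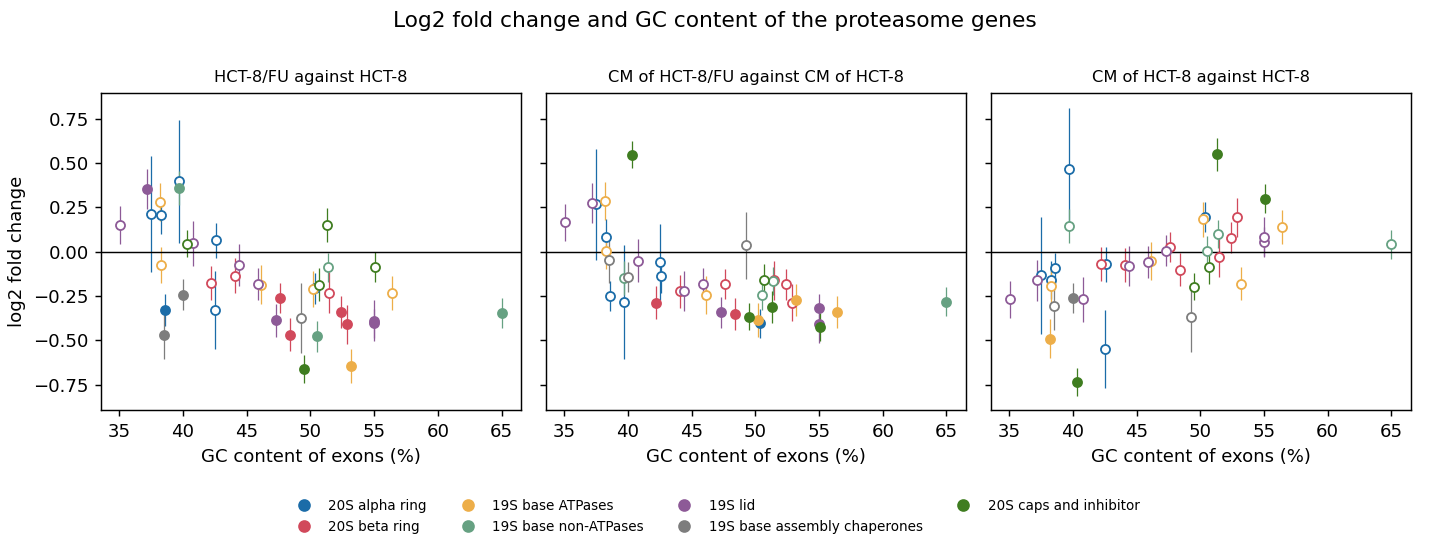
Log2 fold change, with its standard error as the bar, against the GC content of the exons for the 40 tested proteasome genes in 3 comparisons. Filled points have an edgeR FDR of at most 0.05 and colors give the place in the complex. The points fall with GC content for HCT-8/FU (Spearman −0.57) and for its medium (−0.70) and rise with it for CM of HCT-8 (0.59).

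The NFE2L1 pathway, named above as a regulator of subunit genes, was read from a list of 6. NFE2L1 measured 664 and 660 CPM in HCT-8 cells, 343 and 346 CPM in HCT-8/FU cells, 507 and 463 CPM under CM of HCT-8, and 404 and 413 CPM under CM of HCT-8/FU. The groups did not overlap, and the log2 fold change in HCT-8/FU was −0.94 ± 0.07 with an edgeR FDR of 1.1e-07. The small MAF genes MAFF, MAFG and MAFK, whose products pair with NFE2L1 on DNA, fell in HCT-8/FU by 0.97, 0.93 and 0.72 on the log2 scale. DDI2, the protease that cuts NFE2L1 to its active form, rose by 0.67, and NGLY1, which removes its sugars, gave 0.08 with an edgeR FDR of 0.63. With the GC correction DDI2 lost its call, at 0.31 with an edgeR FDR of 0.083, and NGLY1 was lower, at −0.46 with an edgeR FDR of 0.0099.

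In CM of HCT-8/FU the pathway looked different. NFE2L1 changed by −0.25 ± 0.07 with an edgeR FDR of 0.018, a call that 4 of 8 fits without 1 library and the other reference library did not keep, and that became −0.14 with the GC correction. MAFF, MAFG and MAFK gave −0.05, −0.02 and −0.03, with edgeR FDRs of 0.80 to 0.90, whereas DDI2 rose by 0.78. With the GC correction DDI2 was at 0.43 and NGLY1 was lower, at −0.53, with edgeR FDRs of 0.043 and 0.0095. CM of HCT-8, the control here, was itself lower than HCT-8 in NFE2L1, by 0.45 on the log2 scale with an edgeR FDR of 3.3e-04, and in MAFG, by 0.39 with an FDR of 0.0027. The difference between the comparisons passed for NFE2L1 (−0.70 ± 0.10), MAFF (−0.92 ± 0.15), MAFG (−0.91 ± 0.11) and MAFK (−0.70 ± 0.12), with edgeR FDRs from 9.9e-05 to 0.0016. The part of NFE2L1 in the levels of the subunit genes was not tested.

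**Figure D5:**
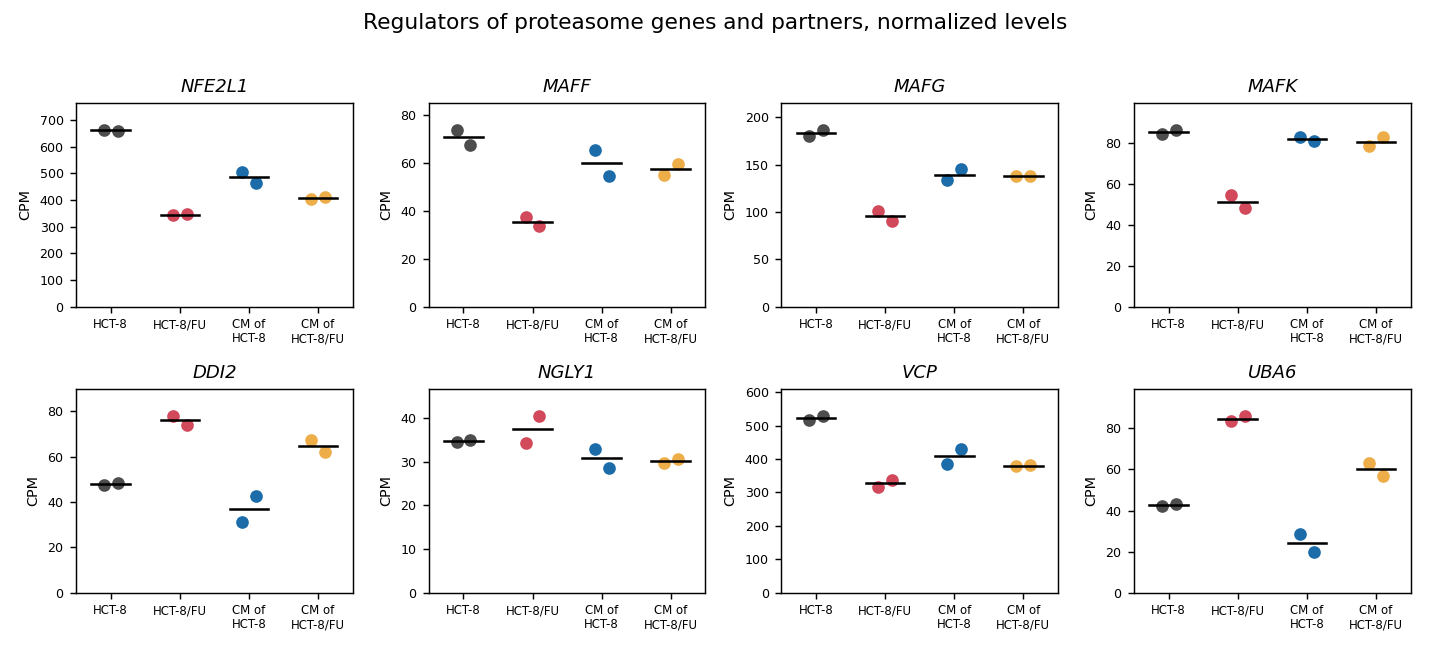
Normalized level (CPM, linear axis from 0) of NFE2L1, its partners MAFF, MAFG and MAFK, its processing enzymes DDI2 and NGLY1, the unfoldase gene VCP and the ubiquitin-activating gene UBA6. Points are libraries and lines are the means of the 2 replicates. NFE2L1 is at 343 and 346 CPM in HCT-8/FU and at 664 and 660 in HCT-8.

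Other genes around the proteasome were counted by list. Of 5 genes for unfolding substrates before degradation, all 5 fell in HCT-8/FU and UFD1 alone passed in CM of HCT-8/FU. Of all tested genes, 18.1% were lower in HCT-8/FU and 8.49% under its medium. With the GC correction FAF2 lost its call in HCT-8/FU, at −0.29 with an edgeR FDR of 0.075. VCP, the AAA ATPase of this group, gave 516 and 530 CPM in HCT-8 and 317 and 338 in HCT-8/FU, a log2 fold change of −0.68 ± 0.07 with an edgeR FDR of 3.8e-06. The difference from the CM comparison was −0.57 for VCP and −0.38 for its cofactor NPLOC4, with edgeR FDRs of 0.002 and 0.041. With the GC correction NPLOC4 lost this call, at −0.32 with an edgeR FDR of 0.2.

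Among 8 ubiquitin genes, E1 enzymes and shuttle factors, 2 fell and 1 rose in HCT-8/FU, and 3 fell and 1 rose under its medium. The shares of all tested genes were 18.1% lower and 18.6% higher in HCT-8/FU, and 8.49% and 11.2% under its medium. UBB and RPS27A, which encode ubiquitin, fell in both, by 0.40 and 0.30 and by 0.66 and 0.36 on the log2 scale. With the GC correction RPS27A kept its call in HCT-8/FU and UBB did not, and neither kept it under the resistant medium. UBA6, a ubiquitin-activating enzyme, rose by 0.99 ± 0.13 and 1.36 ± 0.13 on the log2 scale, to 83.4 and 86.2 CPM in HCT-8/FU from 42.1 and 43.1 in HCT-8. The GC correction left UBA6 at 0.23 and 0.57 in these comparisons, with edgeR FDRs of 0.21 and 0.013. Its call was thus lost in HCT-8/FU and kept under the resistant medium.

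Of 12 assembly chaperones and associated proteins, 2 rose and 1 fell in HCT-8/FU, and 1 rose and 1 fell under its medium. Of all tested genes, 18.6% rose and 18.1% fell in HCT-8/FU, and 11.2% and 8.49% under its medium. UCHL5, a deubiquitinating enzyme that docks on ADRM1, rose by 0.93 ± 0.12 and 0.81 ± 0.12 on the log2 scale, from 26.9 and 25.2 CPM in HCT-8 to 48.1 and 51.0 in HCT-8/FU. With the GC correction the values were 0.32 and 0.22, and neither passed. After this correction PSMG2, POMP, SEM1, USP14, TXNL1 and ECPAS were lower in HCT-8/FU, at −0.28 to −0.92. PSMG4 was then higher there, at 0.32 with an edgeR FDR of 0.03. Under the resistant medium POMP, SEM1, USP14 and TXNL1 were lower, at −0.41 to −0.96, and none was higher. Of the 3 immunoproteasome genes, which replace the catalytic subunits in immune responses, PSMB8 was at 29.0 to 40.9 CPM, PSMB9 at 0.790 to 1.84 and PSMB10 at 2.03 to 2.88. PSMB8 was lower under CM of HCT-8/FU than under CM of HCT-8, by 0.35 on the log2 scale, and higher in CM of HCT-8 than in HCT-8, by 0.40, with edgeR FDRs of 0.046 and 0.028. With the GC correction both calls of PSMB8 were lost, at −0.22 and 0.31, and the first was lost under most alternatives. None of the 3 passed in HCT-8/FU.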

How the data were processed

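RNA of 8 samples was sequenced in 4 groups of 2. Per the labels, reads were placed on GRCh38 by HISAT2, handled with SAMtools 1.18 and assigned to genes by HTSeq 0.11.2. The authors deposited the raw counts per gene of each library. The strand setting of the counting is not given in these sources. The authors' DESeq2 tables (mean, log2 fold changes with errors and p-values) were not used here. The 5 HTSeq lines that name no gene were left out: 29.7% to 40.8% of records lay on genes.

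Counts were filtered with filterByExpr, normalized by TMM with HCT-8 replicate 2 as the reference, and fitted over all 4 groups with edgeR 4.0.16 in R 4.3.3 (quasi-likelihood, Benjamini-Hochberg FDR of at most 0.05). Standard errors are the log2 fold change divided by the root of the F statistic. DESeq2 1.42.0 was an alternative. Exon length, GC content and overlaps came from GENCODE 44, matched by identifier, and not from the annotation used for the counting. The correction for GC content and length used a spline of 5 degrees of freedom in each library. Other alternatives were another reference, other filters, a term for poorly aligned libraries, the replicate number as a block and leaving out each library. A fit without the 3 poorly aligned libraries and the split at 45% GC were chosen after seeing the data.

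On counts simulated for HCT-8/FU against HCT-8 over 19816 genes, edgeR recovered 41.1% of changes of 0.75, 74% of 1.5 and 78.9% of 2 on the log2 scale, with 6 false calls. With a GC trend added to the simulation it made 6594 false calls over 19799 genes, and 10 over 19378 genes with the correction. The correction is built to remove such a trend, so this does not show how it performs on the real counts. There the correlation of the members with GC content turned to 0.54 and 0.63 in the first comparisons.

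The members and lists were chosen with earlier results of these data known. A number had to end the gene name, so PSMC3IP was left out. Values in every library are given for the 3 catalytic subunits, every DE member, and the 3 largest and 3 smallest log2 fold changes in each of the first 3 comparisons. Whether replicate numbers mark a shared day is not given; they were not used as pairs. Some genes of the ubiquitin list are not reported here, and its counts cover the others.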

Additional observations from a re-analysis of the deposited data

Results flagged for a closer look

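The change in HCT-8/FU against HCT-8 and the change under medium of the resistant line against medium of HCT-8 were subtracted, and the difference itself was tested in edgeR. Groups of 2 libraries are too small to look for a single sample far from the others. Among the members, the difference of the log2 fold changes was 0.51 for PSMD1 (SE 0.136, FDR 0.025), 0.46 for PSME2 (SE 0.13, FDR 0.031) and −0.50 for PSME4 (SE 0.111, FDR 0.0078). PSMD1 thus stood higher in the resistant line than under its medium, relative to the respective control, whereas PSME4 stood lower. The shares of members that passed did not exceed the 5.15% and 6.42% of all tested genes that were higher and lower. Most fits without 1 library lost the calls of PSMD1 and PSME2. With the correction for GC content and length PSMD1 was at −0.20 in HCT-8/FU (edgeR FDR 0.2) and at −0.73 under its medium (edgeR FDR 0.0011). The difference for PSMD1 was then 0.53 (edgeR FDR 0.048). The call of PSME2 was lost with the correction for GC content and length, at 0.45 (edgeR FDR 0.081).

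In the NFE2L1 pathway the difference was −0.70 for NFE2L1 (SE 0.0961, edgeR FDR 0.00025), −0.92 for MAFF (FDR 0.00095), −0.91 for MAFG (FDR 9.9e-05) and −0.70 for MAFK (FDR 0.0016). NFE2L1 and MAFG were also lower under CM of HCT-8, the control of the second comparison, than in HCT-8, at −0.45 and −0.39 (edgeR FDRs 0.00033 and 0.0027). Among the genes around the proteasome, the difference was −0.57 for VCP (edgeR FDR 0.002) and −0.38 for its cofactor NPLOC4 (FDR 0.041). The call of NPLOC4 was lost with the correction for GC content and length, at −0.32 (edgeR FDR 0.2).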

How the results depend on the processing

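The values below are numbers of members that passed, first as reported. With the correction for GC content and length, alone or with the replicate block, the higher members went from 2 to 0 in HCT-8/FU and from 1 to 0 under its medium. DE members went from 2 to 5 of 40, with PSMC4 no longer among them, and from 0 to 2 of 40. With the correction alone the 2 were PSMA5 and PSMD1. In that fit 3046 and 954 of all 19857 genes were DE in these comparisons. For CM of HCT-8 it took the lower members from 3 to 1 and DE from 1 to 0. In the difference it left 1 of 2 higher members, and 0 with the block. Another reference library gave 4 higher and 0 DE members in HCT-8/FU, and 3 higher, 4 lower and 1 DE under its medium. It moved the median of all genes from 0.01 to 0.10 and from −0.06 to 0.03. A fit of the compared groups only gave 2 higher, 5 lower and 1 DE under the resistant medium and 1 higher for CM of HCT-8. DESeq2 and its size factors each gave 1 DE under the resistant medium, 1 higher for CM of HCT-8 and 1 higher in the difference. Without a filter these were 3 higher under the resistant medium and 1 higher in the difference. The term for poorly aligned libraries gave 4 higher in HCT-8/FU, 3 higher and 1 DE under its medium, 5 lower for CM of HCT-8 and 3 lower in the difference. The 5 well aligned libraries, in which the spread came from CM of HCT-8/FU alone, gave 24 lower in HCT-8/FU, 4 higher and 25 lower under its medium, 5 higher and 7 lower for CM of HCT-8, and 4 higher and 5 lower in the difference. When 1 library was left out, higher, lower and DE members ranged from 0 to 3, 8 to 20 and 1 to 3 in HCT-8/FU, from 1 to 2, 2 to 16 and 0 to 1 under its medium, from 1 to 3, 1 to 6 and 1 to 3 for CM of HCT-8, and from 0 to 3, 1 to 3 and 0 to 1 in the difference. PSMD1 and PSMD12 in HCT-8/FU reversed to −0.20 and −0.24 with the correction, and to −0.20 and −0.25 with the block added. Over 82 called values of single genes, 1235 alternative values kept the call, 310 lost it and 4 reversed, and the causes were not tested. The replicate numbers were checked as a pairing. Deviations of same-numbered libraries correlated at −0.0862 between the lines, −0.0279 between the CM groups and 0.132 between HCT-8 and CM of HCT-8, so not every pair was over 0.1 and they were taken to share only a number. The block gave 2 higher and 14 lower members in HCT-8/FU and 1 and 11 under its medium, where PSMB1 and PSMC4 lost their calls (−0.29 and −0.28).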
